A study of Mus musculus with 14 samples.

Results

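The Schlafen genes form a family of the mouse immune system, and 7 of its members (Slfn1, Slfn2, Slfn3, Slfn4, Slfn5, Slfn8 and Slfn9) were followed in cultures grown from the bone marrow of diabetic and healthy mice. They were taken as every row whose NCBI gene ID maps to one of these symbols, which gave 7 of the 17890 genes and 48 of the 60072 transcript entries of the table. A further 3 genes of the table, Slfn10-ps, Slfn14 and Slfnl1, carry a related symbol and were not members.

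Poly(A) RNA was sequenced from 4 D and 4 M libraries, all from male C57BL/6J mice, an inbred strain, aged 8 weeks when the experiment began. The D libraries were read as the diabetic group, whose mice had been given streptozotocin, a poison of the insulin-producing beta cells, by intraperitoneal injection at 42 to 45 mg/kg daily over 5 days. Those mice were taken as diabetic above 16.9 mmol/L blood glucose and were hyperglycaemic for 6 weeks. The M libraries were read as the healthy group, which had no such treatment in the labels. That reading of M rests on elimination, since no label spells out the letter, and every direction here is D relative to M and would reverse if the letters were used the other way. Marrow progenitors of both groups were then grown with 5 mmol/L glucose and M-CSF over 7 days, M-CSF being the growth factor that drives macrophage formation. Nothing in the labels ties each library to a separate mouse, so a p-value here measures the spread between libraries, which may be partly technical. The remaining 6 samples of the series, 3 diabetic-trained and 3 untrained, were not analysed here.

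The libraries held 19048195 to 20027967 estimated counts each. Markers of several cell types moved with the groups, and their part in the Schlafen differences was not tested. The labels call the cultures macrophages, and the macrophage genes Adgre1 (87.3 ± 22.4 CPM, counts scaled to the library size, in D and 46.7 ± 6.91 CPM in M; SD, n = 4 each) and Csf1r (209 ± 22.5 CPM in D and 162 ± 9.97 CPM in M) were present, while the phagocytic receptor Mertk averaged 0.739 CPM in D and 1.06 CPM in M. Summed over its list, the neutrophil markers stood at 45284 to 70255 CPM in D and 39135 to 41001 CPM in M, with 11 of 14 higher and 0 lower, against 9803 to 15334 CPM in D and 7259.6 to 8082 CPM in M for the macrophage and monocyte markers, with 7 of 12 higher and 0 lower. B lineage markers summed to 67.0 to 233 CPM in D and 1089.6 to 1409.7 CPM in M, with 8 of 10 lower and 0 higher. Mast cell and basophil markers summed to 1056 to 1430.2 CPM in D and 545 to 686 CPM in M (7 of 8 higher), and T and natural killer markers to 84.6 to 99.5 CPM in D and 64.3 to 66.3 CPM in M (5 of 10 tested higher). Megakaryocyte and erythroid markers summed to 922 to 3912 CPM in D and 2937 to 5365 CPM in M (4 of 9 lower), and dendritic and plasmacytoid markers to 212 to 435 CPM in D and 500.1 to 531 CPM in M (5 of 10 lower). Markers counted as higher or lower passed the edgeR test given below. Over all tested genes, 17.4% were called higher and 17.3% lower in that test. No marker was at 0 in every library. In bulk RNA, a change in the number of cells of a type and a change in RNA per cell cannot be told apart.

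Schlafen genes were first described as brakes on the growth of developing T cells, and many are induced by type I interferon in myeloid cells and lymphocytes. The mouse proteins are sorted by length. Slfn1 and Slfn2 are short, Slfn3 and Slfn4 are intermediate, and Slfn5, Slfn8 and Slfn9 are long and carry a helicase-like region. The shared Schlafen core binds RNA, and members of the family cleave transfer RNA or shield it from cleavage.

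All 7 members lie on mouse chromosome 11, in one cluster of 335 kb (chr11:82951349-83286726, GRCm38) that also holds Slfn10-ps and Slfn14. Their RefSeq promoter windows (GRCm38.p6, 300 bases, from 250 before to 50 after the annotated start) were searched for short runs of letters. All 7 members had a window, Slfn8 more than one. GAAANNGAAA, the core letters of the interferon-stimulated response element, was searched on both strands and lay in the windows of 3 of the 7 members, all of the long class, against 3.44% of the 32851 windows of the table. Its match is in capitals, and each run is written 5′ to 3′ along the gene's own strand:
Slfn5 (chr11:82951932-82951971, plus strand): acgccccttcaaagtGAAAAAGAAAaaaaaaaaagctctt
Slfn8 (chr11:83020834-83020873, minus strand): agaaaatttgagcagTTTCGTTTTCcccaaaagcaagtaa
Slfn9 (chr11:82991851-82991890, minus strand): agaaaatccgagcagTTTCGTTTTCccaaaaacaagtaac
The match ran from 155 to 146 bases before the start in Slfn5 and from 45 to 36 in Slfn9. For Slfn5 the start used is base 82952102. Its annotation as a gene begins upstream of that, at base 82951349, so the match lies within the annotated gene. In Slfn8, which has 2 annotated starts, the same match ran from 48 to 39 bases before the upstream start and from 136 to 127 before the other. In both Slfn8 and Slfn9 it reads on the opposite strand, within nearly the same letters, so these matches are not independent of each other. The windows of the short and intermediate members share another run, ACTTCCTGGNG, which lay in 0.228% of all windows and contains TTCC, the core letters of Ets family sites. It is the longest run common to the windows of these 4 genes when 1 letter inside it is left free:
Slfn1 (chr11:83116731-83116771, plus strand): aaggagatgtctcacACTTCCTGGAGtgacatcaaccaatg
Slfn2 (chr11:83065042-83065082, plus strand): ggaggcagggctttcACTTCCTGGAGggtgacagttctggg
Slfn3 (chr11:83191273-83191313, plus strand): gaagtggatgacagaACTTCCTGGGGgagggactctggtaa
Slfn4 (chr11:83175098-83175138, plus strand): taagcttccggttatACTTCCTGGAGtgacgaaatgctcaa
Here the capitals ran from 74 to 64 bases before the start in Slfn1, 55 to 45 in Slfn2, 42 to 32 in Slfn3 and 73 to 63 in Slfn4. Since the run was chosen from these 4 genes' windows, its count and its split of the members by length are a description only. Without the free letter the longest shared run was ACTTCCTGG, part of the one above, which lay in 0.843% of windows. TTCNNNGAA, the core of the gamma-activated site of interferon response genes, lay in 8.30% of windows and in 0 of the 7 members. A match gives letters in a window and is not evidence that a factor binds there.

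The D and M libraries were compared gene by gene. Slfn4, Slfn5, Slfn8, Slfn1 and Slfn2 were higher in D libraries, from 2.84-fold for Slfn4 to 1.68-fold for Slfn2, while Slfn3 and Slfn9 did not pass the test. All 7 members passed the filter on low counts. By edgeR's quasi-likelihood test with an adjusted p (Benjamini-Hochberg over the 12839 genes tested) under 0.05, 5 of the 7 were called higher and 0 lower, where 34.7% of all tested genes were called, 17.4% higher and 17.3% lower. For the same 5 members every D library stood above every M library, which held for 16.3% of all tested genes (34.7% did not overlap in one direction or the other). The median log2 fold change of all tested genes was -0.03 with TMM scaling and -0.14 with library totals alone. The 5 calls held under both.

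**Figure D1:**
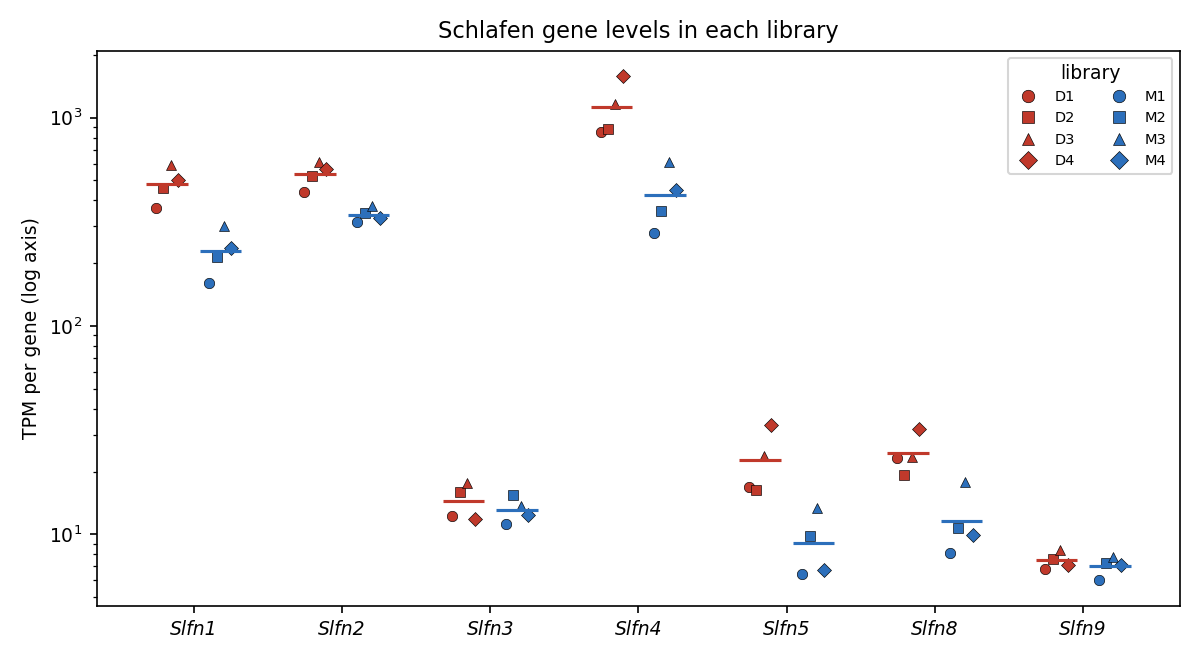
Level of each Schlafen gene in each library, in TPM (a level corrected for transcript length) on a log axis, with D libraries left of M libraries, 1 marker shape per replicate number and a bar at the group mean. The D points of Slfn1, Slfn2, Slfn4, Slfn5 and Slfn8 lie above all M points of the same gene, while those of Slfn3 and Slfn9 overlap.

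Among the short members, Slfn1 (NCBI gene 20555) restrains T cell growth when it is forced on in thymocytes. It stood at 366, 463, 639 and 518 CPM in libraries D1 to D4, against 160.5, 207, 285 and 227 CPM in M1 to M4. The lowest D library was 1.28 times the highest M library, and D1 and M1 were the lowest of their groups. Slfn1 averaged 496 ± 114 CPM in D and 219.9 ± 51.5 CPM in M (SD, n = 4 each), a log2 fold change of 1.17 ± 0.20 (SE; 2.26-fold) with an adjusted p of 0.00229 by edgeR's quasi-likelihood test.

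Slfn2 (NCBI gene 20556) holds resting T cells and monocytes in quiescence and shields transfer RNA from cleavage. Its values were 385, 461, 579.9 and 514 CPM in D1 to D4, against 275, 293, 313 and 276 CPM in M1 to M4. The groups did not overlap, and its M libraries lay closer together than those of any other member, with a coefficient of variation of 6.29% in M and 17.0% in D. Slfn2 averaged 485 ± 82.4 CPM in D and 289 ± 18.2 CPM in M (SD, n = 4 each), a log2 fold change of 0.75 ± 0.11 (SE) with an adjusted p of 0.000971 by the edgeR test.

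Of the intermediate members, Slfn4 (NCBI gene 20558) is an interferon-inducible gene of macrophages and other myeloid cells. It reached 1769, 1849, 2641 and 3417 CPM in D1 to D4, against 579.7, 714, 1214 and 901 CPM in M1 to M4. The lowest D library was 1.46 times the highest M library, the widest gap of any member, though the libraries within a group also spread by 1.93-fold in D and 2.09-fold in M. Slfn4 averaged 2419 ± 773 CPM in D and 852 ± 275 CPM in M (SD, n = 4 each), with a log2 fold change of 1.51 ± 0.28 (SE) and an adjusted p of 0.00423 by the edgeR test. By mean CPM it ranked 20th of all tested genes in D and 96th in M, and 111 tested genes had a larger log2 fold change.

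Slfn3 (NCBI gene 20557), known for differentiation of the gut lining in rodents, is the immediate neighbour of Slfn4. It stood at 11.6, 15.3, 18.2 and 11.7 CPM in D1 to D4, against 10.6, 14.2, 12.3 and 11.2 CPM in M1 to M4. The groups overlapped, with D1 and D4 below M2 and M3. The log2 fold change was 0.23 ± 0.16 (SE; mean 14.2 ± 3.19 CPM in D and 12.1 ± 1.57 CPM in M, SD, n = 4 each) and the adjusted p of the edgeR test was 0.279, so no difference was detectable at this spread.

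Of the long members, Slfn5 (NCBI gene 327978) is a nuclear protein whose human counterpart acts as a transcriptional repressor in the interferon response. It stood at 54.7, 53.3, 83.9 and 112 CPM in D1 to D4, against 20.9, 30.9, 41.1 and 20.9 CPM in M1 to M4. The groups did not overlap, and D4 was the highest library. Slfn5 averaged 76.1 ± 28.0 CPM in D and 28.4 ± 9.65 CPM in M (SD, n = 4 each), a log2 fold change of 1.42 ± 0.31 (SE) with an adjusted p of 0.00959 by the edgeR test. A long non-coding RNA, Slfn5os, overlaps Slfn5 in the annotation and had no row in the table. Whether reads were counted by strand is not given in the sources used here, so reads of the pair cannot be told apart.

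Slfn8 (NCBI gene 276950) is a close relative of rat Slfn13, a nuclease of transfer and ribosomal RNA. Its values were 46.6, 40.2, 52.6 and 67.8 CPM in D1 to D4, against 16.6, 21.3, 34.0 and 19.4 CPM in M1 to M4. The lowest D library was 1.18 times the highest M library, the narrowest gap among the 5 called members. Slfn8 averaged 51.8 ± 11.8 CPM in D and 22.8 ± 7.70 CPM in M (SD, n = 4 each), a log2 fold change of 1.18 ± 0.24 (SE) with an adjusted p of 0.00553 by the edgeR test. That call was lost when the gene was counted by curated transcripts only (log2 fold change 0.68, adjusted p 0.404) and when it was counted by its most abundant entry only (1.90, adjusted p 0.148).

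Slfn9 (NCBI gene 237886) lies beside Slfn8 on the chromosome and shares part of its transcript sequence. It stood at 38.5, 43.1, 50.4 and 40.6 CPM in D1 to D4, against 33.8, 39.1, 39.8 and 36.8 CPM in M1 to M4. Only D1 fell among the M libraries. The log2 fold change was 0.21 ± 0.09 (SE; mean 43.1 ± 5.18 CPM in D and 37.4 ± 2.69 CPM in M, SD, n = 4 each), with an adjusted p of 0.108 in the edgeR test. With the replicate number as a block the log2 fold change was 0.20 and the adjusted p 0.0446, and without D1 they were 0.28 and 0.0308, so the call for Slfn9 depends on the fit.

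The other genes of the cluster were not members, and neither passed the test. Slfn10-ps, a pseudogene, averaged 2.89 ± 0.922 CPM in D and 3.23 ± 0.949 CPM in M (adjusted p 0.664 by the edgeR test). Slfn14, whose human counterpart acts in platelets, averaged 30.2 ± 17.1 CPM in D and 46.0 ± 17.3 CPM in M (adjusted p 0.379), and D3 was its lowest library at 7.17 CPM. The sum of the megakaryocyte and erythroid markers was also lowest in D3, at 922 CPM against 2384 to 3912 CPM in the other D libraries and 2937 to 5365 CPM in M. The haemoglobin gene Hbb-bs alone held 571 CPM of that sum in D3. Of the platelet genes, Pf4, Gp9 and Itga2b were lowest in D3 and Gp1bb in D4 (4.22 CPM, against 4.80 CPM in D3). Slfnl1 had too few reads to be tested.

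**Figure D2:**
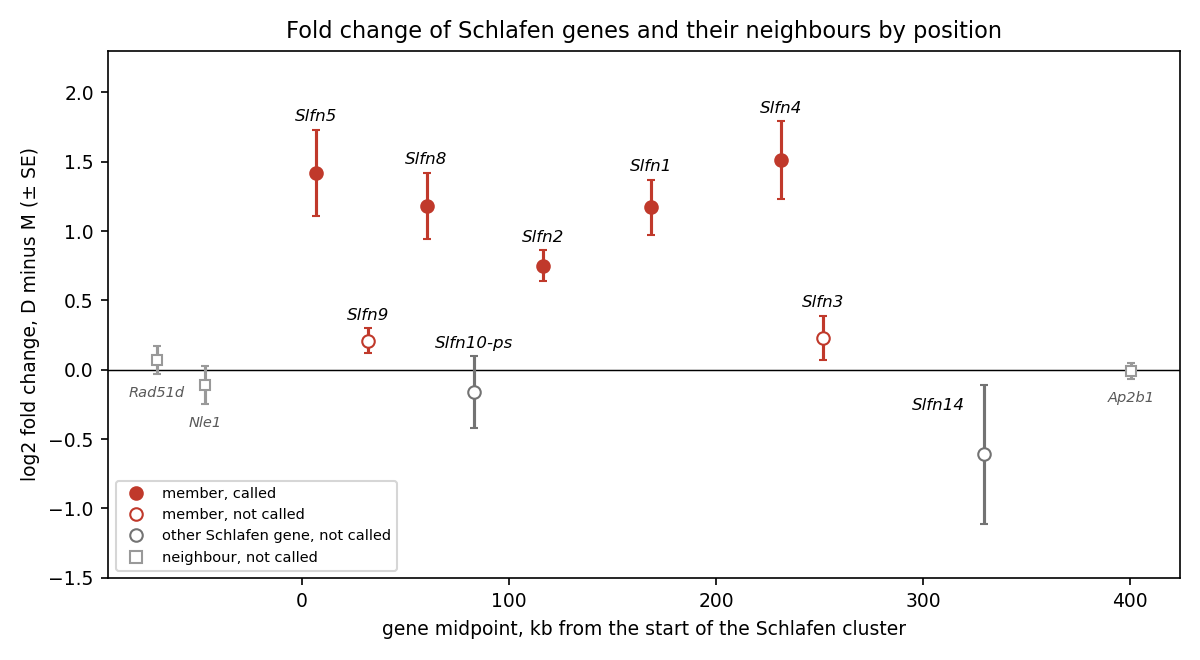
Log2 fold change (D minus M, ± SE) of the Schlafen genes and 3 flanking genes, by the distance of each gene's midpoint from the start of the cluster in kb. Filled circles mark members that passed the edgeR test and open symbols genes that did not. The 3 flanking genes shown lie between -0.11 and 0.07. The uncalled member Slfn9 sits between called ones, and Slfn3 sits between the called Slfn4 and the uncalled non-member Slfn14.

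The position of the genes was examined next. Of the uncalled members, Slfn9 lies between the called Slfn5 and Slfn8. Slfn3 is the outermost member on its side, between the called Slfn4 and the uncalled non-member Slfn14. Of the flanking genes, Nle1 on one side (42.9 kb away, log2 fold change -0.11 ± 0.14, adjusted p 0.560) and Ap2b1 on the other (12.0 kb away, -0.01 ± 0.06, adjusted p 0.899) did not pass the edgeR test. Of the 10 nearest tested genes on each side, 20 in all, 7 were called higher and 3 lower in D by the edgeR test. Over all tested genes, 17.4% were called higher and 17.3% lower. The median log2 fold change of the 20 was 0.20, beside -0.03 for all tested genes. The 7 were Myo1d (0.55), Rffl (0.36) and the chemokine genes Ccl2 (1.54), Ccl7 (2.31), Ccl5 (1.35), Ccl9 (0.73) and Ccl6 (1.75), the nearest of which, Rffl, lies 80.1 kb away.

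Levels of different genes were compared in TPM, which corrects for transcript length. Slfn4, Slfn2 and Slfn1 together made up 96.5% to 97.0% of the summed TPM of the 7 members in D and 95.5% to 96.6% in M. That sum was 1715, 1922, 2437 and 2737 TPM in D1 to D4, against 785, 959.9, 1342 and 1051 TPM in M1 to M4. The groups did not overlap.

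In D libraries the order by mean TPM was Slfn4 (1119 ± 340.2 TPM), Slfn2 (535 ± 72.6), Slfn1 (479 ± 92.2), Slfn8 (24.5 ± 5.40), Slfn5 (22.6 ± 8.04), Slfn3 (14.4 ± 2.84) and Slfn9 (7.48 ± 0.710), each as mean ± SD over 4 libraries. Slfn2 and Slfn1 overlapped in range, as did Slfn8 with Slfn5 and Slfn5 with Slfn3, while the other neighbours in that order did not. In M libraries the order by mean TPM was Slfn4 (423 ± 144 TPM), Slfn2 (342 ± 27.0), Slfn1 (228 ± 57.6), Slfn3 (13.1 ± 1.82), Slfn8 (11.6 ± 4.27), Slfn5 (9.07 ± 3.19) and Slfn9 (7.04 ± 0.743). There Slfn4 and Slfn2 overlapped, and in M1 Slfn2 (314 TPM) stood above Slfn4 (278 TPM). Slfn3 overlapped Slfn8, Slfn8 overlapped Slfn5 and Slfn5 overlapped Slfn9. The share of Slfn4 in the family sum was 45.8% to 57.8% in D and 35.4% to 45.6% in M, and that of Slfn2 was 20.7% to 27.2% in D and 28.1% to 40.1% in M. Slfn1 kept close shares, at 21.9% ± 2.73 in D and 22.0% ± 0.976 in M (SD, n = 4 each).

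Members that resemble each other were set against each other within a library, which needs no scaling between libraries. The ratio of Slfn4 to Slfn3 counts was 153, 121, 145 and 293 in D1 to D4, against 54.7, 50.3, 98.5 and 80.1 in M1 to M4. The ratio of Slfn8 to Slfn9 was 1.21, 0.931, 1.04 and 1.67 in D1 to D4, against 0.491, 0.544, 0.855 and 0.526 in M1 to M4. The ratio of Slfn1 to Slfn2 was 0.950, 1.00, 1.10 and 1.01 in D1 to D4, against 0.584, 0.707, 0.910 and 0.823 in M1 to M4. In none of the 3 ratios did the groups overlap, and Slfn4, Slfn8 and Slfn1 each had the larger difference of their pair. The mean log2 ratios differed by 1.29, 1.01 and 0.44 in that order, each with p = 0.0286 in a two-sided exact permutation test that exchanges all 8 libraries freely, the smallest p it allows, and 0.0286 after Benjamini-Hochberg adjustment over the 3 ratios. With the replicate number as a block, where D and M are exchanged only within the 4 same-numbered pairs, each ratio gave p = 0.125 in the exact permutation test. That is the smallest p that 4 pairs allow, so the ratios pass the threshold only when the pairing is set aside. The pairs were formed with the gene results known. Slfn4 and Slfn8 had been called and Slfn3 and Slfn9 had not, so their ratios partly restate the gene test. How often ratios of other gene pairs fail to overlap was not counted.

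Some members also share sequence. Of all stretches of 50 bases in their transcripts, Slfn8 and Slfn9 shared 389 (9.30% of those of Slfn8 and 6.52% of those of Slfn9) and Slfn3 and Slfn4 shared 252 (7.39% and 6.28%). Slfn2 and Slfn4 shared 69 (4.27% and 1.72%), Slfn1 and Slfn4 shared 11, and none was found shared between Slfn1 and Slfn2. At 100 bases, Slfn8 and Slfn9 still shared 50 and Slfn2 and Slfn4 shared 2, while no shared stretch was found between Slfn3 and Slfn4. Whether reads were assigned to the wrong gene was not tested. When Slfn3 with Slfn4 and Slfn8 with Slfn9 were summed before the edgeR test, Slfn3 plus Slfn4 gave a log2 fold change of 1.49 ± 0.28 (adjusted p 0.00416), and Slfn8 plus Slfn9 gave 0.66 ± 0.13 (adjusted p 0.00319; mean 95 ± 12.6 CPM in D and 60.2 ± 9.93 CPM in M, SD, n = 4 each).

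Within a group, the members did not all rank the libraries alike. D4 was the highest D library for Slfn4, Slfn5 and Slfn8, and D3 for Slfn1, Slfn2, Slfn3 and Slfn9. M1 was the lowest M library for every member, tied with M4 at the printed precision for Slfn5, and M3 was the highest for every member but Slfn3, where M2 was. The neutrophil markers were also highest in D3 (70255 CPM summed) and lowest of the D libraries in D1 (45284 CPM), while in M they differed little and were highest in M1 (41001 CPM). With D1 and D3 both left out, the same number of members, 5, were called higher. The D libraries kept in that fit, D2 (53678 CPM) and D4 (57422 CPM), also stood above every M library in neutrophil markers. The part of these markers in the Schlafen differences was not tested.

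Pearson correlations of the log2 CPM departures from the group means, over the 8 libraries and given as a description, were 0.92 for Slfn5 with Slfn8, 0.90 for Slfn4 with Slfn8 and 0.84 for Slfn4 with Slfn5. They were 0.84 for Slfn1 with Slfn2 and with Slfn9, 0.81 for Slfn2 with Slfn9 and 0.91 for Slfn3 with Slfn9. Slfn1 also stood at 0.83 with Slfn4, 0.70 with Slfn5 and 0.69 with Slfn8, and Slfn2 at 0.66 with Slfn4, 0.72 with Slfn5 and 0.52 with Slfn8. Slfn3 and Slfn4, which lie side by side, stood at 0.06, and Slfn3 and Slfn8 at -0.00. All these values share the same libraries, depths and centring. Among the tested non-members with the most similar departures were Oas3 (0.972), Cd55 (0.967) and Rrm2b (0.964) for Slfn4, and Ifi204 (0.967), Ifit3 (0.958) and Ifit3b (0.957) for Slfn5. They were Senp1 (0.985), Rtp4 (0.978) and Nlrc5 (0.963) for Slfn8, Txn1 (0.993) and Kif20b (0.990) for Slfn1, and Siglece (0.988), Crybg3 (0.988) and Chst15 (0.987) for Slfn2. For the uncalled members they were Sel1l (0.978), Acbd3 (0.975) and Acsl4 (0.973) for Slfn3, and Yes1 (0.979), Pikfyve (0.977) and Rmnd5a (0.976) for Slfn9. They are among the highest of all tested genes, over only 8 libraries.

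**Figure D3:**
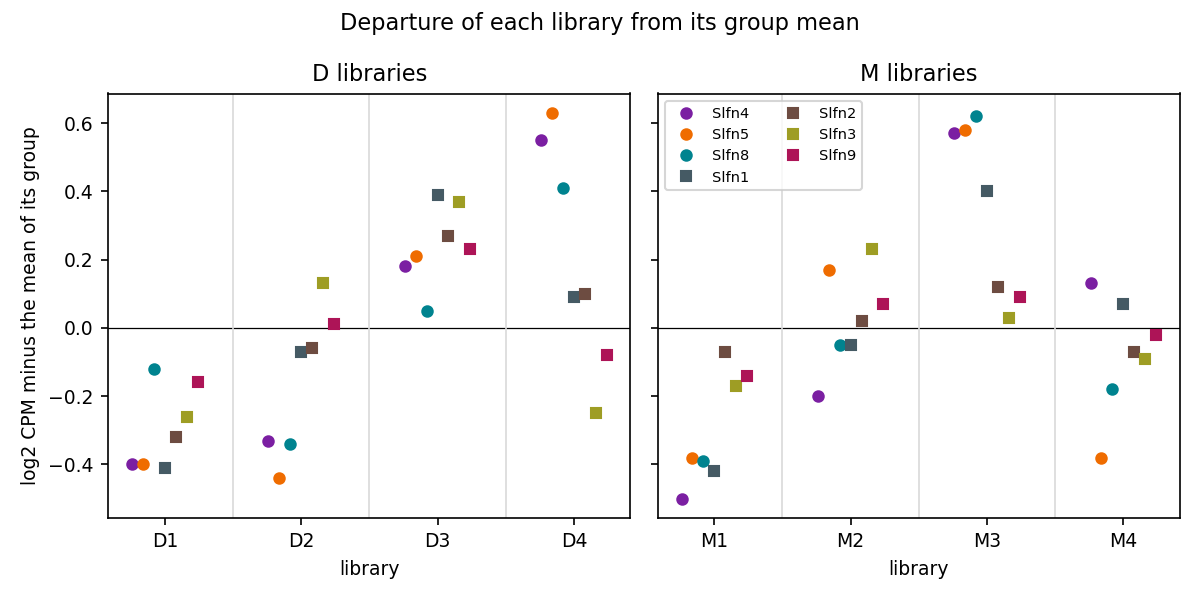
Departure of each library's log2 CPM from the mean of its own group, for the D libraries (left) and the M libraries (right), with 1 symbol per member (circles for Slfn4, Slfn5 and Slfn8, squares for the rest). The circles are the highest points in D4 and in M3, and in D4 Slfn3 and Slfn9 lie below their group mean.

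The table lists RefSeq transcripts, and several accessions occur more than once with a numbered suffix whose meaning the table does not state. Over the whole table such repeat entries held 1.41% of all counts, but for Slfn1 they held 66.8% and for Slfn3 44.5%. Slfn1 has a single accession, NM_011407, in 4 entries. Its entry 1 held 4412, 2922, 3069 and 3019 estimated counts in D1 to D4, against 1131, 523, 1894 and 1469.7 in M1 to M4. Its entry 3 held 1222, 3673, 7083 and 2879 in D1 to D4, against 1063, 1834, 1901 and 1574 in M1 to M4. Its entry 4 held 1633, 2464, 1429 and 4039.7 in D1 to D4, against 1089.8, 1794, 1895 and 1478 in M1 to M4. The groups overlapped in entries 3 and 4 but not in entry 1 or in the sum per gene. By its most abundant entry alone, Slfn1 had a log2 fold change of 1.30 with an adjusted p of 0.113 by the edgeR test. Repeat entries held 27.8% of the counts of Slfn8, 3.69% of Slfn2, 2.26% of Slfn5, 0.315% of Slfn9 and 0.189% of Slfn4. In Slfn8, entry 4 of NM_001167743 and of NM_181545 held the same counts as entry 1 in every library. Whether that is an equal split or a double count is not stated. The TPM order above sums these entries, so the place of Slfn8 in it depends on them. With repeat entries left out, Slfn8 had a log2 fold change of 1.39 (adjusted p 0.000122 by the edgeR test).

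**Figure D4:**
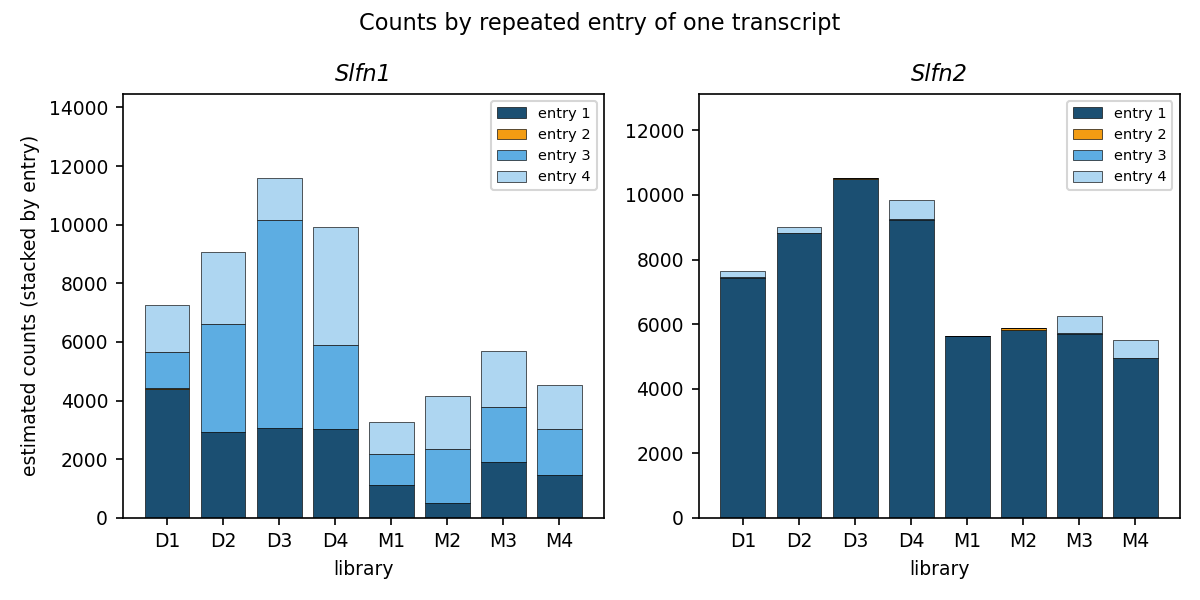
Estimated counts of Slfn1 (left) and Slfn2 (right) in each library, stacked by the repeat entries of their single transcript accession, with D libraries left of M libraries. Entries 1, 3 and 4 of Slfn1 take unequal parts from library to library, while entry 1 holds nearly all Slfn2 counts.

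Single transcript entries were tested in a fit of their own. Of 30 Schlafen entries that passed the filter, 4 were called higher and 0 lower at an adjusted p under 0.05 by the edgeR test over 32923 entries, where 2.24% of all tested entries were called higher and 1.78% lower. They were the single curated transcript of Slfn2, NM_011408 (0.77 ± 0.12, adjusted p 0.0223), and 3 transcripts of Slfn4. The curated Slfn4 transcript NM_001302559 stood at 963, 915, 1200 and 1520 CPM in D1 to D4, against 247, 230, 513 and 389 CPM in M1 to M4. Its log2 fold change was 1.74 ± 0.30 (adjusted p 0.0271), and the groups did not overlap. The predicted Slfn4 transcripts XM_006532660 and XM_030245729 had log2 fold changes of 1.69 ± 0.36 (adjusted p 0.0490) and 1.14 ± 0.21 (adjusted p 0.0304). With the entries of one accession summed, a step added after the data were seen, Slfn1's NM_011407 was called as well (1.17 ± 0.21, adjusted p 0.0295), which makes 5 Schlafen accessions where 2.28% of all tested accessions were called higher. These transcript calls were not stable, and 0 to 4 entries passed when single libraries were left out.

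The make-up of each member by transcript was tested with edgeR's diffSpliceDGE. Of the 6 members with more than one tested entry, 0 differed (adjusted p 1 for each, unadjusted p 0.73 to 0.949, so 0 under 0.05), where 0.776% of 7605 genes did. limma's diffSplice also called 0 members. NM_001302559, picked from the 10 transcripts of Slfn4, held 44.4% to 53.7% of the gene's counts in D and 32.1% to 43.2% in M. For Slfn4 the unadjusted p of the diffSpliceDGE test was 0.78. For Slfn9, the predicted transcript XM_006533235 held 98.5% to 100% of the counts in D and 97.0% to 100% in M, so the curated transcript of this gene was nearly empty. For Slfn8, the predicted XM_030246054 held 41.4% to 69.0% in D and 0.374% to 62.3% in M, and the lowest value was M3.

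Type I interferon signalling, which induces several Schlafen genes, was examined through 14 genes of the receptor, its kinases, the ISGF3 complex, and regulators and targets. By the edgeR test, 6 of the 14 were higher and 2 lower in D, with a median log2 fold change of 0.29, beside -0.03 for all tested genes. Of all tested genes, 17.4% were called higher and 17.3% lower. Irf7, which amplifies the response, averaged 56.3 ± 21.7 CPM in D and 20.0 ± 6.29 CPM in M (SD, n = 4 each; log2 fold change 1.49 ± 0.30, adjusted p 0.00698). Usp18, which damps signalling at the receptor, averaged 16.9 ± 5.90 CPM in D and 6.51 ± 1.88 CPM in M (1.37 ± 0.27, adjusted p 0.00464). Socs1, an inhibitor of the JAK kinases, went the other way, with 2.00 ± 0.354 CPM in D and 4.60 ± 0.737 CPM in M (-1.20 ± 0.18, adjusted p 0.000955). Further called genes included Irf9 (0.47), Jak1 (0.44) and Socs3 (1.10), all higher, and Irf3 (-0.26), which was lower. Stat2 (0.08), Tyk2 (-0.07), Ptpn2 (0.06), Isg15 (0.75) and the receptor genes Ifnar1 (0.13) and Ifnar2 (0.11) did not pass the test.

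Since Schlafen proteins act on transfer RNA, a list of 10 genes of transfer RNA cleavage and protection was counted as well. Of the 8 with enough reads, 2 were higher and 0 lower in D by the edgeR test, with a median log2 fold change of 0.16. They were Elac1, a nuclease that trims the ends of transfer RNA (35.1 ± 6.74 CPM in D and 22.7 ± 1.45 CPM in M, SD, n = 4 each; 0.63 ± 0.12, adjusted p 0.00371), and Ang, the angiogenin that cuts transfer RNA under stress (0.712 ± 0.312 CPM in D and 0.324 ± 0.127 CPM in M; 1.13 ± 0.40, adjusted p 0.0495). Ang was scarce, at 0.496 to 1.17 CPM in D and 0.201 to 0.501 CPM in M. The share of 2 in 8 lies near the background of 17.4% called higher.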

How the data were processed

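Per the labels, read filtering used SOAPnuke 1.5.6, alignment to mm10 used software spelled HISTA2 (2.1.0), and the study's own calls used limma 3.66.0 at an unadjusted p under 0.05. The submitters' processing notes name GRCm38 and mm10. The quantifier, annotation release and strand setting were not given in the sources used. Per the file headers, the deposited values of each RefSeq transcript entry are estimated counts, TPM and FPKM by the authors, plus a signal of normalized counts. That signal equalled the counts, rounded up, over a single number for each library (0.953 to 1.06), within a relative tolerance of 0.001 for 100% of values. The signal entered no test, and 8 columns of group means were left unused.

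Estimated counts were summed per NCBI gene and rounded. Genes passing edgeR's filterByExpr (minimum count 10, minimum total 15) were tested with edgeR 4.0.16's quasi-likelihood fit (TMM, robust) in R 4.3.3, with Benjamini-Hochberg adjustment. TMM factors were 0.913 to 1.01 in D and 1.03 to 1.05 in M, and the biological coefficient of variation was 12.4%. CPM uses TMM-scaled library sizes. RefSeq symbols matched 17836 of 17890 genes. Replicates all differed beyond sampling noise, with a chi-square of 6.49 to 67 for each gene on average, and none was counted as a copy. The script was tested on simulated counts.

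D and M libraries with the same number departed from their group means together, with correlations of 0.115, 0.131, 0.119 and 0.182, against -0.178 to 0.0735 for other pairs, so the labels' replicate numbers were taken to pair the libraries, and a block on them was run as an alternative. Other alternatives were library totals, upper-quartile and DESeq2 1.42.0 scaling, DESeq2's test, limma 3.58.1 on counts, FPKM and TPM, other filters and transcript sets, and each library left out.

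Named were all members, their transcripts with a group mean of at least 1 TPM, the 3 most similar genes per member, called neighbours among the 10 nearest on each side, and called genes of the interferon and transfer RNA lists. The members and gene lists were chosen with earlier results of these data known. A few genes that this rule names are not reported here.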

Additional observations from a re-analysis of the deposited data

How the results depend on the processing

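Across 25 alternatives, 3 to 6 of the 7 members were called higher and 0 lower. The count was 3 with the most abundant transcript entry only, where 2052 genes were called, and 2531 genes were called with curated transcripts only, against 4456 in the reported fit. Slfn2, Slfn4 and Slfn5 were called in every alternative run, at log2 fold changes of 0.62 to 0.87, 1.32 to 1.73 and 1.14 to 1.82. Slfn1 lost its call by its most abundant entry only, and Slfn8 there and by curated transcripts. Leaving out single libraries gave 5 to 6 members and 3458 to 5369 genes called.

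The replicate block, which pairs libraries by number, added Slfn9 and removed no member's call, but left 325 transcript entries called against 1323 in the reported fit, 1 Schlafen entry against 4, and 27 genes with a difference in usage against 59. The differences in log2 ratio of Slfn4 to Slfn3 (1.29), Slfn8 to Slfn9 (1.01) and Slfn1 to Slfn2 (0.44) did not pass with the pairing kept, a step added after the data were seen. With single libraries left out they were 1.02 to 1.47, 0.84 to 1.19 and 0.33 to 0.54, each with an adjusted p of 0.0571 in the exact permutation test, the smallest that 3 against 4 libraries allow. Without a filter 817 entries were called, and limma's diffSplice called 356 genes for usage. With single libraries left out, 221 to 1689 entries, 0 to 4 Schlafen entries and 31 to 65 genes for usage were called. The Schlafen entries numbered 0 without D2, D4, M1, M2 or M4, 1 without D3, 2 without M3 and 4 without D1. Of 336 values of 26 named transcripts, 12 reversed, all in uncalled repeat entries near 0. The repeat entry of Slfn3's NM_011409 (0.01) gave -0.10 with library totals, -0.01 with a minimum count of 50, -0.03 with the block and -0.18 to 0.17 with single libraries left out. Entry 4 of Slfn2's NM_011408 (-0.06) gave 2.83 with the block and -1.03 to 0.55 with single libraries left out. The cause was not tested for these changes.

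Slfn3, at 10.6 to 18.2 CPM, is the shallowest member. The counts were estimated by an unnamed tool. Slfn8 and Slfn9, Slfn3 and Slfn4, and Slfn2 and Slfn4 share stretches of 50 bases, at most 9.30% of those of a member. Counted over any other gene, the shared part was 16.0% for Slfn3, 14.6% for Slfn8, 11.9% for Slfn9, 11.3% for Slfn4 and 11.1% for Slfn5. It was 4.27% for Slfn2 and 0.606% for Slfn1. These counts used 3 transcripts of Slfn4 and 4 of Slfn5, where the table lists 10 and 8. Within these stretches, reads of a gene cannot be told from those of another gene that shares them.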
